A study of Homo sapiens with 8 samples.

Results

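Cohesin, condensin and the SMC5/6 complex are the ring-shaped SMC (structural maintenance of chromosomes) complexes of human cells, and 26 of their subunits and direct regulators were followed here through a CRISPRi growth screen. The guides were chosen by name: an sgRNA belonged to the set when the gene symbol in its name was that of a listed gene, when it was aimed at the primary promoter (P1) or at a promoter region common to both annotated starts (P1P2), and when the count averaged over the 8 libraries reached 20. This gave 130 sgRNAs of 104881 kept in the screen, and 26 genes of 17547 tested. Of these genes, 24 had 5 sgRNAs, NCAPD2 had 6 and RAD21 had 4. The sgRNA of RAD21 that fell below the minimum had a mean count of 13.3, and the lowest above it were an sgRNA of CDCA5 at 45.5 and an sgRNA of ESPL1 at 59.9.

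The cells were K562, a human leukemia line, made to express dCas9-KRAB, a cut-deficient Cas9 joined to a transcriptional repressor that an sgRNA directs to a promoter. All of them carried this repressor and the whole-genome sgRNA library, and they stably expressed uL16, a protein of the large ribosomal subunit, in its wild-type form or in a mutant form that the labels do not specify. Each line was sampled at day 0 and at day 9, with 2 libraries in each of the 4 groups, after puromycin at 1 µg/ml for 3 days had removed cells without an sgRNA; the design text counts 10 cell doublings to the end of growth. The purpose given for the screen was to find factors that deal with defective large subunits. The labels do not say whether a line was a single clone, what endogenous uL16 remained, or whether the replicates were separate cultures.

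SMC complexes hold or fold DNA by means of a pair of long SMC proteins closed into a ring by a kleisin subunit. Cohesin encircles sister chromatids from replication until separase cuts its kleisin at anaphase, and it also extrudes the loops of interphase chromosomes. Condensin I and condensin II compact chromosomes for mitosis, sharing their SMC pair but not their other subunits. The SMC5/6 complex acts in DNA repair and replication and carries SUMO and ubiquitin ligase subunits. In a growth screen, an sgRNA becomes rarer between the start and the end when repressing its target slows division or kills the cell.

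CRISPRi acts at the start of transcription, so the promoters of the 4 genes of this set that fell most in wild-type cells are shown here, each as the 250 bases before the RefSeq start site (build GRCh38.p14, 5′ to 3′ on the gene's strand). Capitals mark matches to 2 elements known from promoters of cell-cycle genes: the CHR, searched as TTTGAA or TTCAAA, and the CCAAT box, searched as CCAAT or ATTGG. ESPL1 encodes separase (chr12:53268049-53268298, plus strand), SMC1A (chrX:53422729-53422978, minus strand) and SMC3 (chr10:110567445-110567694, plus strand) encode the SMC pair of cohesin, and NCAPH encodes the kleisin of condensin I (chr2:96335516-96335765, plus strand).

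ESPL1: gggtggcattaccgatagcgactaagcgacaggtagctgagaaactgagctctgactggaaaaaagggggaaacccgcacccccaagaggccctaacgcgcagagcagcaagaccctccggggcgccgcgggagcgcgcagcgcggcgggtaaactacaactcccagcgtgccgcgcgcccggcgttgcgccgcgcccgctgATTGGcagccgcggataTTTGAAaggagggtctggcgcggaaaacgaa
SMC1A: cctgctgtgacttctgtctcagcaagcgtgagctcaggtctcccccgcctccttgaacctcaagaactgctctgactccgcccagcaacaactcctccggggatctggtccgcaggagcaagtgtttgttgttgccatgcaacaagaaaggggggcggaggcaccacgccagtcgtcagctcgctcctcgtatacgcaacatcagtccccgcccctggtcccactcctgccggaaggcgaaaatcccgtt
NCAPH: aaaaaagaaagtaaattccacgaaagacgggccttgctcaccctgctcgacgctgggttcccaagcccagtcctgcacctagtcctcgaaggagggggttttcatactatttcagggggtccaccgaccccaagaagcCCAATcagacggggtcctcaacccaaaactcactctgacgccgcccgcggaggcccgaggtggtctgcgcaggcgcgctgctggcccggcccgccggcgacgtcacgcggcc
SMC3: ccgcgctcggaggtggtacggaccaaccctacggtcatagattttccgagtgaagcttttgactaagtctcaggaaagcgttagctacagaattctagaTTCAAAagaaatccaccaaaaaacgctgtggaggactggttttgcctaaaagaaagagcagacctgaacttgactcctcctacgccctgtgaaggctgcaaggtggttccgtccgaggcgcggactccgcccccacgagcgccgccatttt

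Of these promoters, that of ESPL1 held both elements, with the CHR ending 25 bases and the CCAAT box 43 bases before the start site. The SMC3 promoter held a CHR and no CCAAT box, the NCAPH promoter a CCAAT box and no CHR, and the SMC1A promoter neither. A promoter was found for 22 of the 26 genes, with WAPAL matched under its current symbol WAPL; RAD21, ESCO2, NCAPH2 and NSMCE2 are named only. A CHR was present in 5 of 22 (SMC3, ESPL1, SMC4, NCAPD2 and NCAPG), against 13.6% of 27305 RefSeq promoters of the same length. A CCAAT box was present in 10 of 22, against 33% of those promoters, and both elements in 2 of 22, against 4.85%. The 22 promoters held a median of 28 CG pairs, against 11 over all RefSeq promoters, so these shares compare promoters of unlike composition. A match describes letters and is not a measured site, and the sgRNA names carry positions that lay within 5 kb of the RefSeq promoter for 3 of 22 genes, so no sgRNA was placed on these sequences.

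Values are given as CPM, the count scaled to a fixed library total, in the order replicate 1 and replicate 2. They are for counts summed over the sgRNAs of a gene unless a single sgRNA is named. Gene sums were scaled to the library's total of gene sums, and single sgRNAs to its total of all kept sgRNAs. Sums of second-promoter sgRNAs were scaled to a total that held them beside the gene sums. The CPM of single sgRNAs therefore do not add up to the CPM of their gene. Library totals ran from 39233340 to 143585751, and the median count of a member sgRNA ran from 171.5 to 1106. The 130 sgRNAs made up 0.111 to 0.112% of the counts in the 4 day 0 libraries and 0.0752 to 0.0784% in the 4 day 9 libraries, so the set as a whole became rarer in both lines and the days did not overlap. Changes are log2 ratios of day 9 over day 0 with their standard error (SE), and adjusted p-values are those of edgeR's quasi-likelihood test after Benjamini-Hochberg adjustment over all genes or all sgRNAs, with a threshold of 0.05. The 1894 non-targeting control sgRNAs had a median change of 0.05 (SD 0.37) in wild-type cells and 0.04 (SD 0.35) in mutant cells, and 11 and 10 of them passed the test as lower.

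In wild-type cells, sgRNAs against 18 of the 26 genes fell, those against 1 gene rose, and 7 genes did not pass the test. Over all genes tested, 9.28% fell and 0.986% rose, 10.3% together. In mutant cells 14 of 26 fell and none rose, against 9.07% and 0.798% of all genes, 9.86% together; at an unadjusted edgeR p under 0.05, 1 of 26 members was higher there, PDS5B, against 884 of 17547 genes, and DESeq2 called PDS5B. The median change of the 26 genes was -0.63 in wild-type and -0.55 in mutant cells, whereas the median of all genes was 0.01 in both. All 14 genes that fell in mutant cells also fell in wild-type cells, and the share of all genes that fell in both lines cannot exceed 9.07%. NCAPG2, NCAPG, SMC6 and SMC5 fell only in wild-type cells, and 8 genes fell in neither line. By role, lower calls were made in wild-type and in mutant cells for 4 and 4 of the 5 cohesin ring genes, for both loader genes and both separation genes in each line, for 1 and 1 of the 5 cohesin regulators, for both condensin SMC genes in each line, for 3 and 2 of the 3 condensin I genes, for 1 and 0 of the 3 condensin II genes, and for 3 and 1 of the 4 SMC5/6 genes.

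Among the ring subunits of cohesin, SMC1A, the SMC partner of SMC3, fell the most. Its sgRNAs went from 34.1 and 30.9 CPM at day 0 to 4.34 and 4.43 at day 9 in wild-type cells, and from 34.0 and 33.0 to 4.40 and 3.59 in mutant cells. Every day 9 library lay far below every day 0 library, and the 2 lines ended at about the same level. The change was -2.89 (SE 0.21, edgeR adjusted p = 6.69e-13) in wild-type and -3.09 (SE 0.21, edgeR adjusted p = 1.18e-13) in mutant cells. Mean CPM was 7.41-fold and 8.37-fold lower at day 9. Among all genes tested, ordered from the largest fall, SMC1A stood at place 56 in wild-type and 49 in mutant cells. Of its 5 sgRNAs, 4 fell in each line, with changes from -2.24 to -4.38 in wild-type cells; the fifth sgRNA, with -2.39 and -2.38, did not pass in either line (edgeR adjusted p = 0.0728 and 0.0598), and its 2 mutant day 9 counts were 1 and 113.

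SMC3, the other SMC protein of the ring, went from 51.2 and 44.1 CPM to 15.9 and 16.1 in wild-type cells and from 42.3 and 47.4 to 14.2 and 14.4 in mutant cells. The days were separate in both lines and the day 9 replicates nearly equal. The changes were -1.58 (SE 0.144, edgeR adjusted p = 1.21e-10) and -1.65 (SE 0.143, edgeR adjusted p = 3.54e-11). The log2 change of SMC1A minus that of SMC3 was -1.31 in wild-type cells (95% interval -1.83 to -0.79) and -1.43 in mutant cells (-1.95 to -0.92), a comparison made without a test. The summed SMC3 value mixed sgRNAs of unlike behaviour. The third sgRNA along the chromosome went from 3.28 and 3.68 CPM to 0.0842 and 0.301 in wild-type cells, a change of -4.15. The fourth, 136 bp away, went from 10.2 and 8.50 to 9.35 and 9.94, a change of 0.05, and changed by 0.34 in mutant cells. The other 3 changed by -2.53 to -3.74 in wild-type cells and -2.06 to -4.0 in mutant cells.

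RAD21 is the kleisin that closes the cohesin ring and that separase cuts. It went from 42.4 and 43.6 CPM to 29.2 and 21.5 in wild-type cells and from 44.6 and 43.9 to 24.1 and 17.3 in mutant cells, so that the day 9 replicates differed from each other but lay below day 0. The changes were -0.76 (SE 0.153, edgeR adjusted p = 3.39e-04) and -1.11 (SE 0.154, edgeR adjusted p = 8.24e-07). A single sgRNA, the second of the 4, passed the test in wild-type cells, lower by 1.81 on the log2 scale, and it and the third passed in mutant cells. The 3 others had wild-type changes of -0.29 to -0.74.

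STAG1 and STAG2 are alternative subunits that bind RAD21. STAG2 sgRNAs at the primary promoter went from 41.9 and 42.3 CPM to 23.3 and 24.7 in wild-type cells and from 37.9 and 39.2 to 17.5 and 23.3 in mutant cells, with changes of -0.81 (SE 0.145, edgeR adjusted p = 6.44e-05) and -0.91 (SE 0.144, edgeR adjusted p = 9.46e-06). STAG1 sgRNAs stood at 66.0 and 63.9 CPM at day 0 and 65.5 and 66.7 at day 9 in wild-type cells, and at 63.4 and 61.9, then 61.1 and 60.6, in mutant cells. STAG2 was lower at day 9 in every library, while STAG1 stayed within a few CPM of its start. The STAG1 changes of 0.03 and -0.04 did not pass the test, with 95% intervals of -0.17 to 0.22 and -0.23 to 0.15. The difference between the 2 genes' changes was 0.83 (95% interval 0.48 to 1.19) in wild-type and 0.87 (0.52 to 1.22) in mutant cells, and the library-by-library ratio of STAG1 to STAG2 did not overlap between days in either line.

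STAG2 and SMC4 were the 2 members with sgRNAs at a separate second promoter (P2), 5 each, which were kept apart from the counts above. The P2 sgRNAs of STAG2 stood at 46.4 and 37.2 CPM at day 0 and 36.6 and 47.4 at day 9 in wild-type cells, with a change of 0.01 (95% interval -0.25 to 0.27), and changed by 0.08 in mutant cells (-0.18 to 0.34). The P2 sgRNAs of SMC4 changed by 0.16 (95% interval -0.02 to 0.33) and 0.13 (-0.05 to 0.30). No P2 value of these 2 genes passed the test, whereas their P1 sgRNAs fell in both lines; of the 1395 genes with a P2 set, 1.43% of the P2 sets fell in wild-type and 1.15% in mutant cells. The nearest P1 and P2 sgRNAs were 644 bp apart for STAG2 and 4331 bp for SMC4. Pooling both sets reduced the STAG2 change to -0.33 and -0.30, still past the threshold, and that of SMC4 to -0.20 in wild-type (edgeR adjusted p = 0.0611, no longer past it) and -0.27 in mutant cells.

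The loader of cohesin, NIPBL with its partner MAU2, fell in both lines, and MAU2 fell further. MAU2 went from 40.8 and 38.3 CPM to 12.5 and 14.2 in wild-type cells and from 47.8 and 45.4 to 12.3 and 9.61 in mutant cells. Days were separate in both lines, with the highest start and the lowest end in mutant cells. The changes were -1.57 (SE 0.157, edgeR adjusted p = 1.04e-09) and -2.10 (SE 0.159, edgeR adjusted p = 1.45e-12). NIPBL went from 47.5 and 43.4 to 28.0 and 33.2 and from 48.3 and 46.2 to 29.9 and 29.9, with changes of -0.57 (SE 0.125, edgeR adjusted p = 0.00109) and -0.66 (SE 0.125, edgeR adjusted p = 1.45e-04). The NIPBL change was smaller than that of MAU2 by 1.00 in wild-type (95% interval 0.59 to 1.41) and 1.44 in mutant cells (1.03 to 1.85). A single NIPBL sgRNA passed the test in each line, the first, with -0.87 and -0.75, against 3 and 4 of the 5 for MAU2. The wild-type NIPBL call did not hold without replicate 1 of wild-type day 0 (-0.50, edgeR adjusted p = 0.0507), without the most abundant sgRNA (-0.41, edgeR adjusted p = 0.0895) or with limma on mean log2 CPM (-0.37, limma adjusted p = 0.0838).

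The cohesin regulators moved in different directions. WAPAL, which opens the ring and releases cohesin from DNA, went from 54.7 and 64.7 CPM to 36.8 and 35.0 in wild-type cells and from 54.7 and 56.2 to 36.7 and 35.2 in mutant cells. The day 9 levels of the 2 lines were nearly the same. The changes were -0.73 (SE 0.114, edgeR adjusted p = 6.91e-06) and -0.63 (SE 0.113, edgeR adjusted p = 7.18e-05). Of the 5 WAPAL sgRNAs, 2 passed the test as lower in wild-type and 1 in mutant cells, and all 5 changed below 0 in each line.

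PDS5B, a cohesin-bound scaffold that works with WAPAL and with the acetylation of SMC3, was the only member that passed the test as higher. They went from 65.2 and 68.7 CPM to 86.6 and 84.9 in wild-type cells, and from 76.9 and 68.2 to 87.3 and 83.9 in mutant cells. Day 9 lay above day 0 in both lines, with less distance in mutant cells. The change of 0.36 (SE 0.0886, edgeR adjusted p = 0.00423) passed in wild-type cells; that of 0.24 (SE 0.0879, edgeR adjusted p = 0.0906) did not pass in mutant cells, and it did pass by DESeq2 (adjusted p = 0.0149). Without replicate 1 of wild-type day 0 the wild-type change was 0.32 (edgeR adjusted p = 0.0974) and the call was lost. A single PDS5B sgRNA passed the test as higher, the second, from 8.05 and 8.76 CPM to 14.9 and 14.3 in wild-type cells. It changed by 0.80 there and by 0.05 in mutant cells. Of the 5 PDS5B sgRNAs, 1 changed below 0 in wild-type cells and none did in mutant cells. Their changes ran from -0.10 to 0.80 in wild-type and from 0.05 to 0.41 in mutant cells. Its paralog PDS5A stood at 62.2 and 63.1 CPM and then 63.8 and 63.9 in wild-type cells, and at 63.7 and 67.8 and then 66.1 and 66.9 in mutant cells. The PDS5A changes of 0.03 (95% interval -0.16 to 0.22) and 0.02 (-0.17 to 0.21) did not pass, and PDS5A minus PDS5B was -0.33 (-0.59 to -0.07) and -0.22 (-0.48 to 0.04).

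ESCO2, an acetyltransferase of SMC3, and CDCA5, also called sororin, which holds cohesin on replicated DNA, did not pass in either line. ESCO2 changed by -0.14 (95% interval -0.38 to 0.11) and -0.16 (-0.40 to 0.09), with CPM between 38.0 and 41.7 at day 0 and 35.4 and 38.8 at day 9. CDCA5 changed by -0.11 (-0.36 to 0.14) and -0.16 (-0.41 to 0.09), with CPM from 44.1 to 47.6 at day 0 and from 37.8 to 46.5 at day 9. In each of these genes a low-count sgRNA moved more than the sum. The second ESCO2 sgRNA went from counts of 236 and 192 to 60 and 53 in wild-type cells and from 199 and 478 to 11 and 131 in mutant cells, with changes of -1.40 (edgeR adjusted p = 0.214) and -1.87 (0.0501). The third CDCA5 sgRNA went from counts of 85 and 55 to 3 and 24 and from 57 and 129 to 7 and 4, with changes of -1.86 (edgeR adjusted p = 0.465) and -3.14 (0.157). With limma on log2 CPM averaged over sgRNAs, which gives each sgRNA the same weight, both genes passed in mutant cells, ESCO2 with -0.50 (adjusted p = 0.0391) and CDCA5 with -0.77 (adjusted p = 0.0193).

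Separation of sister chromatids was represented by ESPL1 and PTTG1. ESPL1, the separase that cuts RAD21, went from 22.2 and 28.2 CPM to 1.88 and 2.60 in wild-type cells and from 19.9 and 22.6 to 2.91 and 3.19 in mutant cells. The day 9 libraries lay far below the day 0 libraries in both lines. The changes were -3.49 (SE 0.29, edgeR adjusted p = 1.35e-11) and -2.79 (SE 0.274, edgeR adjusted p = 5.66e-10), and the wild-type change was at place 20 of the 17547 genes. Mean CPM was 11.3-fold and 6.97-fold lower at day 9. ESPL1 was the only member for which every sgRNA passed the test as lower in both lines. Its single changes ran from -2.83 to -5.24 in wild-type and from -1.62 to -4.49 in mutant cells. The sgRNA with the largest wild-type fall, the fourth, had counts of 89 and 132 at day 0 and of 2 and 2 at day 9. PTTG1, securin, which restrains separase until anaphase, went from 45.2 and 46.5 CPM to 18.9 and 20.5 in wild-type cells and from 53.2 and 49.8 to 20.7 and 20.8 in mutant cells. The PTTG1 changes were -1.22 (SE 0.131, edgeR adjusted p = 5.01e-09) and -1.31 (SE 0.13, edgeR adjusted p = 7.16e-10), with 4 and 3 of 5 sgRNAs past the test as lower. ESPL1 fell further than PTTG1 by a difference of -2.27 (95% interval -2.92 to -1.63) in wild-type and -1.48 (-2.10 to -0.86) in mutant cells.

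The SMC pair that both condensins share, SMC2 and SMC4, fell in both lines. SMC2 went from 46.1 and 39.5 CPM to 20.3 and 15 in wild-type cells and from 51.1 and 50.8 to 15.4 and 20.0 in mutant cells, with changes of -1.28 (SE 0.154, edgeR adjusted p = 5.36e-08) and -1.51 (SE 0.153, edgeR adjusted p = 1.09e-09). SMC4 went from 65.4 and 76.5 to 37.9 and 42.7 and from 71.9 and 71.4 to 39.2 and 35.4, with changes of -0.82 (SE 0.109, edgeR adjusted p = 4.16e-07) and -0.95 (SE 0.109, edgeR adjusted p = 1.85e-08). Days were separate for both genes in both lines. SMC2 minus SMC4 was -0.46 (95% interval -0.84 to -0.08) and -0.57 (-0.95 to -0.19), but the ratio of the 2 genes overlapped between days in wild-type libraries. The SMC4 sum held sgRNAs of very different behaviour 4 bp apart. The first went from 4.91 and 6.28 CPM to 0.421 and 0.221 in wild-type cells, a change of -4.12, and changed by -5.05 in mutant cells. The second went from 15.3 and 17.5 to 13.9 and 14.7, a change of -0.20, and changed by 0.10. The third fell by 1.97 and the fourth by 1.09 on the log2 scale in wild-type cells. The 3 SMC2 sgRNAs that fell in wild-type cells lay within 157 bp, with -3.17, -2.96 and -1.80, and the other two, 409 and 593 bp from the first, changed by -0.59 and -0.40.

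Of the subunits of condensin I, NCAPH, its kleisin, fell the most. It went from 48.8 and 58.0 CPM to 16.2 and 16.4 in wild-type cells and from 60.1 and 55.2 to 19.3 and 19.1 in mutant cells, with replicates at day 9 almost equal. The changes were -1.71 (SE 0.132, edgeR adjusted p = 2.76e-12) and -1.58 (SE 0.13, edgeR adjusted p = 9.96e-12), and 4 of 5 sgRNAs passed the test as lower in each line. NCAPD2, a HEAT-repeat subunit of condensin I, went from 103 and 105 CPM to 68.9 and 67.1 and from 94.6 and 105 to 74.6 and 69.2, with changes of -0.61 (SE 0.0849, edgeR adjusted p = 9.21e-07) and -0.47 (SE 0.0842, edgeR adjusted p = 5.81e-05). Of its 6 sgRNAs, the fourth and the fifth, 19 bp apart, carried large falls of -3.20 and -2.44 in wild-type and -3.78 and -2.51 in mutant cells. The most abundant of the 6, at 36.4 and 33.5 CPM at wild-type day 0, changed by -0.49 and -0.28. With each sgRNA weighted alike in limma, NCAPD2 changed by -1.23 and -1.11. NCAPG, the other HEAT-repeat subunit, went from 43.1 and 46.0 to 38.2 and 24.7 and from 40.0 and 43.0 to 30.1 and 31.8.

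The wild-type day 9 replicates of NCAPG were far apart, and only the second lay clearly below day 0. The change was -0.50 (SE 0.146, edgeR adjusted p = 0.0176) in wild-type cells; it was -0.22 (edgeR adjusted p = 0.368) without replicate 2 of wild-type day 9 and -0.85 (edgeR adjusted p = 4.70e-05) without replicate 1. The call was also lost without either wild-type day 0 library (edgeR adjusted p = 0.0789 and 0.193) and with limma (adjusted p = 0.119). In mutant cells the change was -0.42 (SE 0.144, edgeR adjusted p = 0.0604), and the adjusted p was under the threshold in 6 of 20 alternatives, between 0.00776 and 0.0392. No NCAPG sgRNA passed alone, with single changes of 0.03 to -0.72 in wild-type and -0.03 to -0.64 in mutant cells.

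Condensin II gave a single lower call. NCAPG2 went from 41.9 and 38.8 CPM to 23.4 and 28.1 in wild-type cells and from 39 and 42.0 to 33.5 and 30.1 in mutant cells. Day 9 was below day 0 in both lines, and the mutant day 9 libraries were above the wild-type ones. The changes were -0.65 (SE 0.135, edgeR adjusted p = 5.38e-04) and -0.35 (SE 0.133, edgeR adjusted p = 0.103), the latter past the threshold by DESeq2 (adjusted p = 0.0245), by limma (-0.72, adjusted p = 0.012) and without either of the wild-type day 9 libraries (edgeR adjusted p = 0.045 and 0.0475). A single NCAPG2 sgRNA, the third, went from 7.79 and 6.20 CPM to 0.948 and 1.10 in wild-type cells and from 7.71 and 7.46 to 1.30 and 0.243 in mutant cells, with changes of -2.77 and -3.44. All 5 lay within 62 bp, and the other 4 had wild-type changes of -0.18 to -0.58. In mutant cells these 4 ran from -0.46 to 0.74, the highest being the fourth (edgeR adjusted p = 0.412). NCAPD3 stood at 59.1 and 53.0 CPM and then 52.9 and 53.9 in wild-type cells, and at 52.8 and 57.3 and then 57.8 and 48.0 in mutant cells, with changes of -0.07 (95% interval -0.29 to 0.15) and -0.06 (-0.28 to 0.16). NCAPH2, the kleisin of condensin II, stood at 48.3 and 47.5 and then 43.3 and 41.0, and at 47.7 and 45.1 and then 38.7 and 42.1. Its day 9 libraries were slightly lower in both lines, and its changes of -0.19 (-0.42 to 0.05) and -0.20 (-0.43 to 0.03) did not pass.

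The corresponding subunits of the 2 condensins were also set beside each other. NCAPH minus NCAPH2 was -1.52 (95% interval -1.88 to -1.17) in wild-type and -1.39 (-1.74 to -1.04) in mutant cells. NCAPD2 minus NCAPD3 was -0.54 (-0.82 to -0.26) and -0.41 (-0.69 to -0.13). For both pairs the ratio of the genes did not overlap between days in either line. NCAPG minus NCAPG2 was 0.14 (-0.26 to 0.55) and -0.07 (-0.47 to 0.33), with ratios that overlapped. The 10 pairs of members compared here are described without a test, and repression of the target by each sgRNA was not analysed here.

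In the SMC5/6 complex, NSMCE1, its RING-finger subunit, fell the most. It went from 56.1 and 44.3 CPM to 17.9 and 21.5 in wild-type cells and from 51.6 and 52.1 to 19.8 and 20.3 in mutant cells. The days were separate and the 2 lines ended close together. The changes were -1.35 (SE 0.139, edgeR adjusted p = 1.76e-09) and -1.37 (SE 0.138, edgeR adjusted p = 9.74e-10). The first NSMCE1 sgRNA, which lies apart from the others in their span of 445 bp, changed by -0.10 and 0.14, and the other 4 by -1.40 to -3.04 and -2.17 to -2.92.

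SMC6 and SMC5, the SMC pair of the complex, had smaller changes that passed only in wild-type cells. SMC6 went from 62.6 and 59.9 CPM to 43.7 and 49.4 in wild-type cells and from 59.7 and 59.7 to 49.3 and 52.1 in mutant cells. SMC5 went from 61.5 and 72.8 to 48.7 and 54.5 and from 62.7 and 62.9 to 54.4 and 46.4. Both were lower at day 9 in every library. The SMC6 changes were -0.40 (SE 0.105, edgeR adjusted p = 0.00815) and -0.24 (SE 0.104, edgeR adjusted p = 0.198), and those of SMC5 -0.38 (SE 0.109, edgeR adjusted p = 0.0163) and -0.32 (SE 0.108, edgeR adjusted p = 0.0558). The SMC6 change rested on the fifth sgRNA of the gene, which went from 14.1 and 16.7 CPM to 6.34 and 6.27 in wild-type cells and from 14.1 and 14.2 to 6.58 and 7.22 in mutant cells. The other 4 SMC6 sgRNAs changed by -0.02 to -0.17 in wild-type cells, and without the fifth, the most abundant, SMC6 changed by -0.11 (edgeR adjusted p = 0.707) and 0.01. A single SMC5 sgRNA, the third, passed in each line, with -0.98 and -1.17. SMC5 minus SMC6 was 0.02 (95% interval -0.29 to 0.32) and -0.08 (-0.39 to 0.22).

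The wild-type calls of SMC6 and SMC5 were lost in several alternatives, some of which left a lone library in a group. That of SMC6 was lost without replicate 1 of wild-type day 0 (-0.36, edgeR adjusted p = 0.117) and without replicate 1 of wild-type day 9 (-0.31, edgeR adjusted p = 0.0866), and with limma (adjusted p = 0.0825). That of SMC5 was lost without replicate 2 of wild-type day 0 (-0.25, edgeR adjusted p = 0.401), without replicate 1 of wild-type day 9 (-0.30, edgeR adjusted p = 0.127), without its most abundant sgRNA (adjusted p = 0.16) and with limma (adjusted p = 0.162). In mutant cells SMC5 passed in 8 of 20 alternatives. NSMCE2, the SUMO ligase of the complex, had CPM between 61.9 and 73.8 at day 0 and between 57.6 and 75.8 at day 9, and changes of 0.01 (95% interval -0.18 to 0.21) and -0.05 (-0.24 to 0.15). The fifth NSMCE2 sgRNA fell in wild-type cells, by 0.69 on the log2 scale, and changed by -0.23 in mutant cells.

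At the level of single sgRNAs, 46 of 130 fell in wild-type cells and 46 in mutant cells, against 5.12% and 5% of all kept sgRNAs. In both lines 42 fell, and the share of all kept sgRNAs that did so cannot exceed 5%. In wild-type cells 1 rose, against 0.267%, and in mutant cells none rose, against 0.165%; in either direction 5.38% and 5.17% of all kept sgRNAs passed. The change was below 0 for 103 sgRNAs in each line, and the median was -0.52 in wild-type and -0.58 in mutant cells. The matching values over all kept sgRNAs were not counted. The non-targeting controls had medians of 0.05 and 0.04. Of the 90 sgRNAs of the 18 genes that fell in wild-type cells, 45 fell themselves, and of the 70 sgRNAs of the 14 genes that fell in mutant cells, 43 did. A called gene thus often had sgRNAs that did not pass alone, and every sgRNA of the gene passed for ESPL1 only. These genes were called from the sums of the same sgRNAs, and the matching share for other called genes was not counted. Across the 130 sgRNAs the changes in the 2 lines, which share no library, had a Pearson correlation of 0.92 (Spearman 0.87). Across the 26 genes it was 0.97 (Spearman 0.99). Over all sgRNAs and all genes tested the Pearson correlations were 0.76 and 0.90 (Spearman 0.27 and 0.45), and sgRNAs of a gene share their target and are not independent. A correlation depends on how far the changes spread, and the median change of all genes was 0.01 in both lines. The member and screen-wide correlations are therefore not a comparison of how closely the lines agreed.

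Of the 130 sgRNAs, 5 had the same position and strand as an sgRNA listed for another gene, with identical counts: 2 of SMC1A with RIBC1, 2 of NCAPD2 with MRPL51 and 1 of CDCA5 with ZFPL1. Without these, SMC1A changed by -3.46 and -3.22, NCAPD2 by -0.75 and -0.61, and CDCA5 by -0.39 (edgeR adjusted p = 0.161) and -0.13, so the calls were as before. RIBC1 fell by 1.25 and 1.29 on the log2 scale, with the shared sgRNAs among its 5. Its 3 sgRNAs that were not shared changed by -1.98, -0.76 and 0.16 in wild-type cells, and the first of them passed the test in both lines (edgeR adjusted p = 0.00291 and 0.0133). MRPL51, a mitochondrial ribosomal protein, fell by 0.76 and 0.84, with 3 of the 4 sgRNAs of its own at -1.94 to -4.01 in wild-type cells, the other at 0.36 (edgeR adjusted p = 0.805), and the 2 shared with NCAPD2 at 0.09 and -1.0. For SMC1A and NCAPD2, the part of the neighbour in the change was not tested. Of the 10 genes with an sgRNA within 1000 bp of a member's, the other 8 (ZFPL1, SUGP1, VPS26B, DCAF16, LMF2, KIAA0196, IFT80 and GEN1) did not pass in either line, with changes from -0.21 to 0.23.

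The mutant and wild-type lines were compared by the difference between their changes, mutant minus wild-type. None of the 26 genes passed by edgeR or by DESeq2, against 0.0171% of all genes (3 of 17547) by edgeR, and none of the 130 sgRNAs did by edgeR, against 0% of all sgRNAs. At an unadjusted p under 0.05, edgeR gave 1 of 26 genes, MAU2, against 997 of all genes, and 8 of 130 sgRNAs, against 5362 of all sgRNAs. For MAU2 the difference was -0.53, the larger fall being in mutant cells (SE 0.219, 95% interval -0.98 to -0.09, edgeR adjusted p = 0.865). ESPL1 had the largest difference in size, 0.70 (SE 0.387, 95% interval -0.09 to 1.48, edgeR adjusted p = 0.882), with the smaller fall in mutant cells. RAD21 had -0.34 (-0.78 to 0.10) and NCAPG2 0.30 (-0.09 to 0.68). The difference was under 0.5 in size for 24 of the 26 genes, all but MAU2 and ESPL1. Such sizes were usual in the screen, where the difference had an SD of 0.18 over all genes. Ordered from the lowest difference, MAU2 stood at place 73 and ESPL1 at place 17534 of 17547. The intervals of RAD21 and NCAPG2, both among the 24, reached past 0.5 in size. The 4 genes called only in wild-type cells had differences of 0.06 to 0.30, none past the test, so they were not shown to differ between the lines.

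A further 33 genes of related processes were counted as a list. It held meiotic cohesin subunits, cohesin regulators and protectors, cohesion establishment genes, the chromosomal passenger complex, mitotic regulators, topoisomerase II and KIF4A. It also held MCPH1, CTCF, SMCHD1, PTTG2, and the remaining subunits and loading factors of SMC5/6. The meiotic cohesin genes SMC1B, REC8, RAD21L1 and STAG3 passed in neither line. Of the 33, 13 fell in wild-type and 16 in mutant cells, against 9.28% and 9.07% of all genes, and none rose, against 0.986% and 0.798%; the median change was -0.29 in both lines. In wild-type cells the 6 with the smallest p were BIRC5 (-2.63), AURKB (-2.76) and INCENP (-2.16) of the chromosomal passenger complex, NDNL2 (-1.21) and NSMCE4A (-0.78) of the SMC5/6 complex, and TOP2A (-1.31), the topoisomerase II of mitotic chromosomes. In mutant cells they were AURKB (-2.96), INCENP (-3.40), BIRC5 (-2.29) and CDCA8 (-0.95), all of the passenger complex, TOP2A (-1.58), and CDK1 (-1.06), the kinase that drives entry into mitosis. Beside NSMCE1, the SMC5/6 subunits NSMCE4A and NDNL2 fell in both lines, with -0.76 and -0.61 in mutant cells, while NSMCE2 did not pass in either, nor did EID3 of the same complex, with 0.05 in each line. The difference between lines did not pass for any of the 33. At an unadjusted edgeR p under 0.05 there were 4 of 33, against 997 of all 17547 genes.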

How the data were processed

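Genomic DNA of 8 libraries was sequenced to count sgRNAs. The authors deposited raw read counts per sgRNA, not normalized, for a human CRISPRi version 2 library, with reads trimmed to bases 1 to 39, per the file headers. The submitters' processing notes name hg38, no counting program is named in the sources used here, and positions in sgRNA names lay within 5 kb of the GRCh38.p14 promoter for 3 of 22 genes, so they were used only for distances between sgRNAs. Per the labels' protocols, each sample's DNA went into about 100 PCR reactions, 10 µg in each. PCR reads carry no molecular identifiers, so depth sets counting error only.

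Of 280 sgRNAs listed for the 26 genes, 139 had a count of 0 throughout. sgRNAs with a mean count of at least 20 were summed per gene, with at least 3 sgRNAs a gene. edgeR 4.0.16 in R 4.3.3 was fitted with TMM and quasi-likelihood, 1 mean per group over all 8 libraries and Benjamini-Hochberg adjustment over all genes, or all sgRNAs, at 0.05. The SE was taken from the change and its F statistic, and 95% intervals use the moderated 33.3 degrees of freedom. limma 3.58.1 and DESeq2 1.42.0 served as alternatives. The script was tested on simulated data. The members, lists and tests were chosen with earlier results of these data known. Every member was accounted for, those called or paired with values per library, and up to 6 pathway genes per line with the smallest p were named. RefSeq promoters were searched by text. Replicates differed beyond sampling noise (chi-square per degree of freedom 12.8 to 19.0), and p-values measure the spread between these libraries, which may be technical.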

Additional observations from a re-analysis of the deposited data

How the results depend on the processing

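Over all alternatives, 15 to 19 of the 26 genes passed in wild-type cells, 14 to 18 in mutant cells and 0 in the difference between lines, and no called change turned its direction. Leaving out each library in turn gave 15 to 19, 14 to 17 and 0, with a lone library assumed to vary like the other groups; for sgRNAs it gave 34 to 49 lower or higher in wild-type and 35 to 53 in mutant cells. Of 19 wild-type calls, 13 held in all 20 alternatives, and all 14 mutant calls did. The replicate numbers were not taken as pairs, as the labels do not say what they share. Same-numbered libraries did not deviate together (correlations 0.0165 in wild-type and 0.0442 in mutant cells). A fit with the replicate block called 19, 16 and 0 genes, and 48, 50 and 0 sgRNAs. Counts of few reads limit single sgRNAs most: the lowest member sgRNA had a mean count of 45.5. Including transcript-named sgRNAs, and leaving out those listed under 2 genes, were chosen after seeing the data and left the counts at 19, 14 and 0.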
